A study of Mus musculus with 80 samples.

Results

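Squamous keratin and cornified envelope genes were followed in 80 mammary tumours of MMTV-Myc mice, in which a mouse mammary tumour virus promoter, active chiefly in mammary epithelium, drives the Myc oncogene. The genes were listed by name, namely the keratins Krt6a, Krt10, Krt4 and Krt13, the envelope precursors Lor, Ivl, Sprr1a and Sprr1b, the cross-linking enzyme Tgm1, and Sfn. Every probe set of these 10 genes on the array was taken, which gave 15 of the 22626 probe sets and 10 of the 12393 genes with a probe set of a single symbol. The 4 groups were E2F1 null, E2F2 null, E2F3 heterozygous and wild type for the E2F genes, with 20 tumours in each and 1 array per tumour. All animals were of the FVB strain and all carried the transgene, so the wild-type tumours are Myc tumours too and no normal gland was compared. The sources used here give neither the age of the animals nor the construction of the E2F alleles. The labels number the tumours in the form of a number, a hyphen and a further digit, with 16, 11, 10 and 16 different first numbers in E2F1 null, E2F2 null, E2F3 heterozygous and wild-type tumours. Tumours that share such a number may come from 1 animal, so the number was treated as a block in every test, and each p-value measures the spread between these tumours.

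Keratinocytes of stratified epithelia leave the basal layer, replace basal keratins by the suprabasal keratin Krt10 (in skin) or by Krt4 and Krt13 (in internal linings), and finally build a cornified envelope under the plasma membrane. The envelope is made of loricrin (Lor), involucrin (Ivl) and small proline-rich proteins (Sprr1a, Sprr1b), which the membrane-bound transglutaminase Tgm1 joins by cross-links. Krt6a is induced in wounded or hyperproliferative epidermis and in hair follicles, and Sfn encodes stratifin, a 14-3-3 protein of stratified epithelia that takes part in checkpoint arrest. Squamous differentiation is a known histological variant of mouse mammary tumours.

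Values are MAS5 intensities, the linear signal of a probe set after scaling of each array to a common mean of about 500, and tests used log2(value + 5). They are levels of 1 probe set each, so no gene is compared in level with another gene. In whole tumours, fewer cells of a type and less RNA per cell cannot be told apart. Of the luminal genes, the keratins Krt8 and Krt18 gave 4636 to 15450 and 4962 to 18959 over the 80 tumours. Others of the luminal list differed in this: Cdh1 ran from 1633 to 4811, Krt7 from 75.8 to 6834 and Spdef from 1.81 to 845. Of the targeted genes, E2f1 was measured by a pair of probe sets, with log2 fold changes of -0.59 (SE 0.14, limma adjusted p = 0.0507) and -0.18 (SE 0.10, limma adjusted p = 1.00) in E2F1 null tumours over wild type, and E2f3 by 1, with -0.19 (SE 0.12, limma adjusted p = 1.00) in E2F3 heterozygous tumours. E2f2 had 0 probe sets of a single symbol, so its level in E2F2 null tumours was not read. E2F1 null replicate 6 was the array least like the rest, with a mean correlation to them of 0.830, against a median of 0.915.

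Of the 15 probe sets, 8 passed the filter on low values, an intensity above 74.6 on at least 10 of the 80 arrays. These were all 3 of Krt6a and 1 each of Krt10, Lor, Sprr1a, Tgm1 and Sfn. The single probe sets of Krt4, Ivl and Sprr1b, both of Krt13 and the remaining pair of Lor did not pass. The following levels are those of the brightest probe set of each gene.

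**Figure D1:**
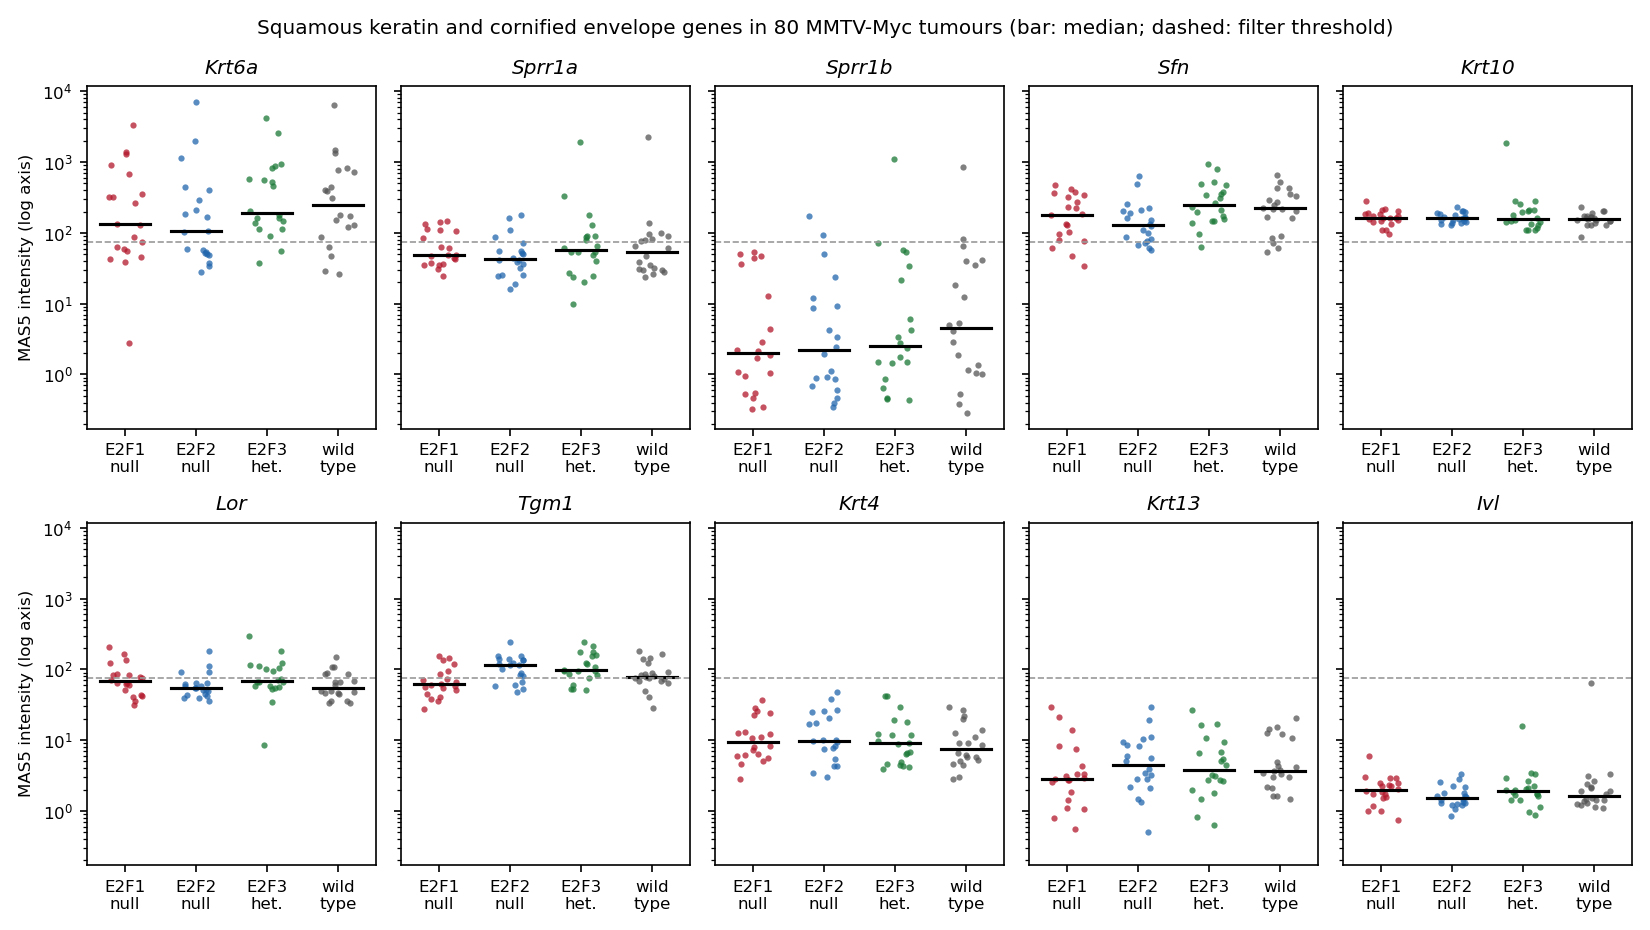
MAS5 intensity (log axis) of the brightest probe set of each gene, 1 point per tumour, for 20 E2F1 null, 20 E2F2 null, 20 E2F3 heterozygous and 20 wild-type tumours; bars are group medians and the dashed line is the filter threshold of 74.6. Krt6a spreads from 2.74 to 7138 with overlapping groups, Krt10 stays between 86.9 and 285 apart from 1 tumour at 1864, and Krt4, Krt13 and Ivl lie below the line in all tumours.

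Krt6a varied widely between tumours of the same genotype and did not separate the genotypes. Its lowest, median and highest intensities were 2.74, 131 and 3334 in E2F1 null tumours, 28.4, 105 and 7138 in E2F2 null tumours, 37.8, 193 and 4218 in E2F3 heterozygous tumours, and 26.5, 247 and 6463 in wild-type tumours. The groups overlapped over almost their whole range. Its SD over the 80 tumours was 2.00 log2 units, larger than that of 99.5% of the probe sets that passed the filter, whose median SD was 0.38. The 3 tumours with the highest values held 36.2% of the summed intensity of all 80.

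The log2 fold change of Krt6a over wild type was -0.59 in E2F1 null tumours (SE 0.65, 95% interval -1.89 to 0.70, limma adjusted p = 1.00). In E2F2 null tumours it was -0.85 (SE 0.67, 95% interval -2.20 to 0.49, limma adjusted p = 0.819). In E2F3 heterozygous tumours it was 0.15 (SE 0.67, 95% interval -1.19 to 1.49, limma adjusted p = 1.00). Differences within these intervals were not detectable with this number of tumours. The 3 probe sets of Krt6a ordered the tumours alike, with Spearman rho between 0.969 and 0.973 over the 80 tumours. Krt6b, its near-identical paralog, can contribute to these probe sets, and the level of Krt6a is uncertain to that extent.

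Krt10, the keratin of suprabasal epidermis, was almost level across genotypes. Its lowest, median and highest intensities were 95.1, 163 and 277 in E2F1 null, 127, 162 and 232 in E2F2 null, 108, 157 and 1864 in E2F3 heterozygous, and 86.9, 158 and 228 in wild-type tumours. Only E2F3 heterozygous replicate 2, at 1864, lay outside the range of the other groups by a wide margin, 11.5-fold over the median of all tumours; the next highest value was 285. The log2 fold change was 0.26 in E2F3 heterozygous tumours over wild type (SE 0.17, limma adjusted p = 1.00) and 0.08 (SE 0.12) without that tumour. It was 0.05 (SE 0.17) in E2F1 null and 0.07 (SE 0.17) in E2F2 null tumours, with limma adjusted p of 1.00 and 0.944.

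Krt4 and Krt13, the keratins of internal stratified linings such as the oesophagus, were near the bottom of the scale in every tumour. Krt4 had medians of 9.43, 9.80 and 9.07 in the E2F1 null, the E2F2 null and the E2F3 heterozygous tumours and 7.57 in wild type, and its highest value anywhere was 48.2. Krt13 had medians of 2.86, 4.52 and 3.82 in the same mutant groups and 3.69 in wild type, and its highest value was 29.7. No array exceeded the filter threshold for either gene. At such levels the order of tumours is poorly defined, as shown by the pair of Krt13 probe sets, whose Spearman rho over the 80 tumours was 0.15.

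Sprr1a and Sprr1b, small proline-rich envelope precursors, were low in most tumours and very high in a pair of them. Sprr1a gave 24.6, 48.5 and 146 as lowest, median and highest intensity in E2F1 null, 16.02, 42.5 and 178 in E2F2 null, 9.90, 57.7 and 1947 in E2F3 heterozygous, and 24.1, 54.3 and 2258 in wild-type tumours. The 2 highest values belonged to wild type replicate 18 and E2F3 heterozygous replicate 12, and the third highest was 329. Sprr1b gave 0.326, 2.01 and 53.8 in E2F1 null, 0.350, 2.21 and 175 in E2F2 null, 0.439, 2.55 and 1117 in E2F3 heterozygous, and 0.286, 4.51 and 852 in wild-type tumours. Its 2 highest values were in the same 2 tumours, in the opposite order.

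The log2 fold changes of Sprr1a over wild type were -0.06 (SE 0.38) in E2F1 null, -0.40 (SE 0.40) in E2F2 null and 0.15 (SE 0.40) in E2F3 heterozygous tumours, with limma adjusted p from 0.850 to 1.00. Without wild type replicate 18 and E2F3 heterozygous replicate 12 they were 0.23, -0.12 and 0.13, so the direction in E2F1 null tumours turned. Without E2F3 heterozygous replicate 2 alone, Sprr1a was 0.018 in E2F3 heterozygous tumours over wild type. Those of Sprr1b, in the fit without a filter, were -0.56 (SE 0.55), -0.57 (SE 0.56) and -0.16 (SE 0.56), with limma adjusted p from 0.897 to 1.00, and the last of these was -0.30 without E2F3 heterozygous replicate 2.

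Loricrin, the most abundant protein of the epidermal envelope, was close to the filter threshold in most tumours. Lor gave 31.3, 68.3 and 205 as lowest, median and highest intensity in E2F1 null, 35.4, 54.7 and 184 in E2F2 null, 8.49, 67.9 and 297 in E2F3 heterozygous, and 33.5, 54.7 and 149 in wild-type tumours. The highest value was in E2F3 heterozygous replicate 2, the tumour with the high Krt10. Its log2 fold changes over wild type were 0.22 (SE 0.22), -0.04 (SE 0.23) and 0.32 (SE 0.23) in the E2F1 null, the E2F2 null and the E2F3 heterozygous tumours, none past the threshold, and the last was 0.22 without that tumour. The 3 Lor probe sets followed each other in part at most. The brightest had a Spearman rho of 0.32 and an r of 0.50 with the dimmest and a rho of 0.05 with the remaining one, and those 2 had a rho of -0.16 with each other, over the 80 tumours. The dimmest, median 1.95, gave 178 in E2F3 heterozygous replicate 2, its only value over the filter threshold.

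Involucrin was at the bottom of the scale. Ivl had medians of 1.98, 1.51 and 1.89 in the E2F1 null, the E2F2 null and the E2F3 heterozygous tumours and 1.64 in wild type. Its 2 highest values, 63.8 and 15.8, were in wild type replicate 18 and E2F3 heterozygous replicate 12, and the third was 5.97. Its log2 fold changes over wild type were -0.12, -0.21 and -0.06 (SE 0.14, 0.15 and 0.15) in the 3 mutant groups. Without those 2 tumours they were 0.06, -0.03 and 0.02.

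Lor, Sprr1b, Sprr1a and Ivl lie on chromosome 3 within 0.494 Mb, in the cluster of envelope genes known as the epidermal differentiation complex. Their promoters are shown because these genes lie in 1 cluster, while among them only the pair of Sprr1a and Sprr1b passed the test of Spearman correlation over tumours. The RefSeq table of GRCm38.p6 holds a promoter for 8 of the 10 genes; Krt6a and Krt4 are named only. The 250 bases before the annotated start of each gene, on the minus strand, are those of Sprr1a at chr3:92485882-92486131, Sprr1b at chr3:92438780-92439029, Ivl at chr3:92573736-92573985 and Lor at chr3:92083143-92083392. Capitals mark TGANTCA, a pattern that takes in the letters bound by AP-1 factors (Fos and Jun proteins), and TATAAA, the letters of a TATA box. AP-1 sites usually have C or G as the middle letter, as in Sprr1a, Ivl and Lor, while the stretch marked in Sprr1b has A.
Sprr1a: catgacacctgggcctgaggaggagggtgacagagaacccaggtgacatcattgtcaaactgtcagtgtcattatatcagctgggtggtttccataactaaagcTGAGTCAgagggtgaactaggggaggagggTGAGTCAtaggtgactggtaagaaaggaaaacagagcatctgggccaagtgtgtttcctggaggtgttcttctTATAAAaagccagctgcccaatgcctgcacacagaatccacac
Sprr1b: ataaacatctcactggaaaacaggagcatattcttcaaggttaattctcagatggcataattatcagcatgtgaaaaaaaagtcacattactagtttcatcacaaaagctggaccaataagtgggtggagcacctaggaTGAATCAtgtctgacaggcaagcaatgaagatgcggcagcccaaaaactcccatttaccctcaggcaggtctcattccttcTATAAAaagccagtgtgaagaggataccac
Ivl: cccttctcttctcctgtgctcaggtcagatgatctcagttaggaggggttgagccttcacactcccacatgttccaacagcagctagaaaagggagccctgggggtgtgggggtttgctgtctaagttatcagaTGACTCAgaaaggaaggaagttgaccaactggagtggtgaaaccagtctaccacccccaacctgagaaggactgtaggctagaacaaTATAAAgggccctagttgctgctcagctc
Lor: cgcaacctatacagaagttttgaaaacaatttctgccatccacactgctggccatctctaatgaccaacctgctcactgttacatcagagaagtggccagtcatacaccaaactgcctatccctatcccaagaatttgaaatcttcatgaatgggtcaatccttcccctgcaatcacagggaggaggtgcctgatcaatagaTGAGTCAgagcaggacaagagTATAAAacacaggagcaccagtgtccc
TGANTCA begins 146 and 116 bases before the start of Sprr1a, 111 before Sprr1b, 116 before Ivl and 48 before Lor, and reads the same on both strands. TATAAA begins 43, 30, 29 and 27 bases before the starts of Sprr1a, Sprr1b, Ivl and Lor. Both motifs were searched on both strands of 300 bases, 250 before and 50 after the start, and they do not overlap. TGANTCA was in 7.81% of all 32851 promoters of this length and in those of 5 of the 8 members, the 4 shown and Krt13. TATAAA was in 13.6% of all promoters and in 5 of the 8 members, the 4 shown and Krt10. Neither was in the windows of Sfn or Tgm1. A match describes letters only.

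Tgm1, the enzyme that cross-links the envelope, was measured at moderate levels in all groups. Its lowest, median and highest intensities were 27.8, 61.4 and 153 in E2F1 null, 47.6, 116 and 243 in E2F2 null, 51.7, 97.3 and 244 in E2F3 heterozygous, and 28.0, 78.6 and 180 in wild-type tumours. The groups overlapped. Over wild type its log2 fold changes were -0.31 (SE 0.20, p = 0.129), 0.27 (SE 0.21, p = 0.193) and 0.31 (SE 0.21, p = 0.134) in the E2F1 null, the E2F2 null and the E2F3 heterozygous tumours before adjustment in limma. Between mutant groups it was -0.58 (SE 0.21) in E2F1 null over E2F2 null tumours, with limma p = 0.00635 and adjusted p = 0.459. It was -0.62 (SE 0.21) in E2F1 null over E2F3 heterozygous tumours, with limma p = 0.00355 and adjusted p = 0.999. Neither difference passed the threshold.

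Sfn, the stratifin gene, had its lowest median in E2F2 null tumours without a difference past the threshold. Its lowest, median and highest intensities were 34.0, 181 and 470 in E2F1 null, 57.4, 129 and 626 in E2F2 null, 63.9, 247 and 947 in E2F3 heterozygous, and 53.7, 221 and 653 in wild-type tumours. All 4 groups overlapped. The log2 fold change over wild type was -0.33 (SE 0.32, limma adjusted p = 1.00) in E2F1 null tumours. It was -0.58 (SE 0.34, limma p = 0.0887, adjusted p = 0.789) in E2F2 null tumours and 0.31 (SE 0.34, limma adjusted p = 1.00) in E2F3 heterozygous tumours. In E2F2 null over E2F3 heterozygous tumours it was -0.89 (SE 0.35), with limma p = 0.0116 and adjusted p = 0.637. Sfn lies on chromosome 4, 2.57 Mb from E2f2, so in E2F2 null tumours the allele and the chromosome region that travels with it cannot be told apart.

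None of the 8 probe sets that passed the filter was called by limma at an adjusted p under 0.05 in any comparison. Over all 15255 tested probe sets, 0.0787% were called in the E2F1 null, 0.0393% in the E2F2 null and 0.00656% in the E2F3 heterozygous tumours over wild type. Between mutant groups, 0.223% were called in E2F1 null over E2F2 null, 0.105% in E2F1 null over E2F3 heterozygous and 0.0656% in E2F2 null over E2F3 heterozygous tumours, and 0.216% by the moderated F test over the 4 genotypes. With shares this small, a count of 0 among 8 is the background. At an unadjusted p under 0.05 the members again gave 0 of 8 in each mutant group over wild type, while 1.21%, 6.21% and 0.662% of all probe sets passed in the E2F1 null, the E2F2 null and the E2F3 heterozygous tumours. The 7 probe sets outside the filter, tested in the fit of all 22626, gave 0 calls at an adjusted p under 0.05 in each mutant group over wild type. Over all probe sets of that fit, 0.053%, 0.0265% and 0.00442% were called in the E2F1 null, the E2F2 null and the E2F3 heterozygous tumours.

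The median log2 fold change of the 8 member probe sets was -0.31, -0.49 and 0.27 in the E2F1 null, the E2F2 null and the E2F3 heterozygous tumours over wild type, while that of all tested probe sets was 0.0056, -0.0032 and 0.0040. The 3 comparisons share their wild-type tumours, and 3 of the 8 are probe sets of Krt6a. Of the 10 genes, 3, 3 and 7 had a positive fold change in these comparisons.

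**Figure D2:**
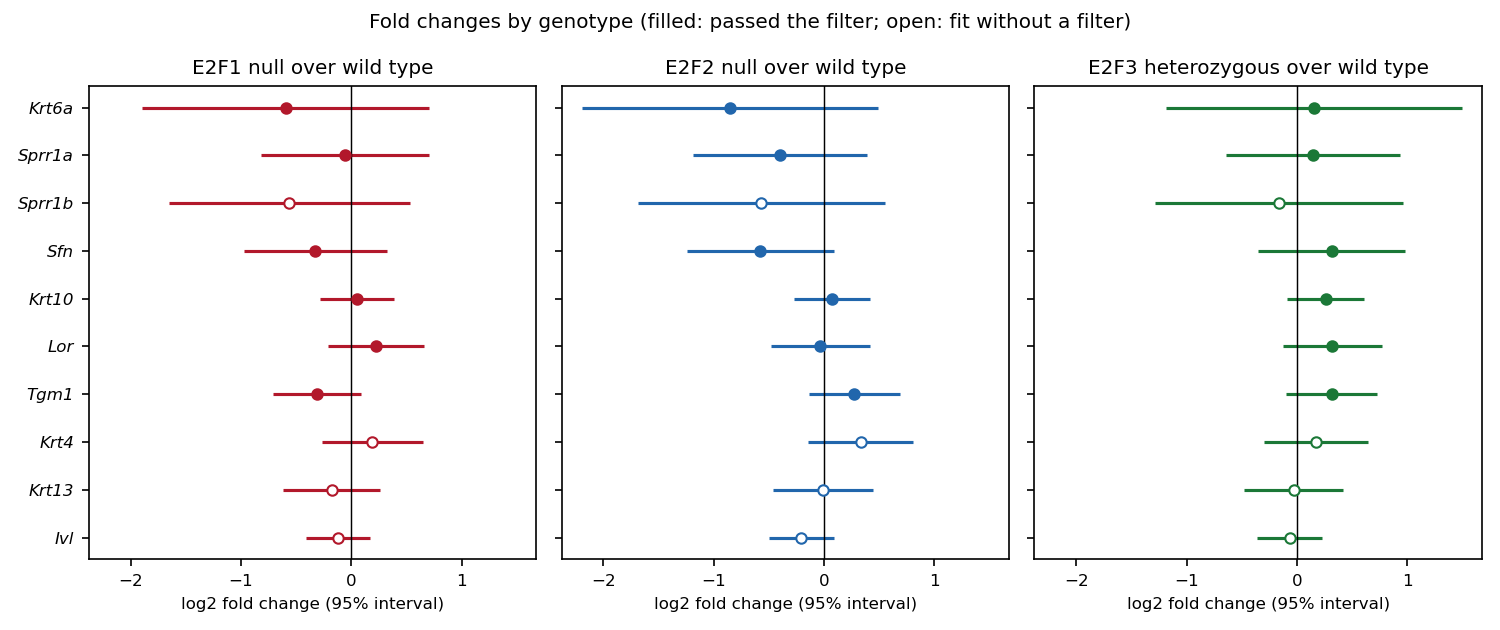
Log2 fold change of the brightest probe set of each gene (points) with its 95% interval (lines) in the E2F1 null, the E2F2 null and the E2F3 heterozygous tumours over wild type, 20 tumours per group; open points are from the fit without a filter. Every interval includes 0, and those of Krt6a and Sprr1b are the widest.

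The genes separated into those that moved together over tumours and those that did not. For each of the 45 pairs, Pearson's r and Spearman's rho were computed over 53 means, 1 per label number, after genotype means were removed, with 100000 permutations within genotype, two-sided, and Benjamini-Hochberg adjustment over the 45. By rho, 7 pairs passed an adjusted p of 0.05, and by r 10 did. Among the 7 were all 6 pairs of Krt6a, Sprr1a, Sprr1b and Sfn, with rho from 0.72 to 0.85. Each of the 6 had a permutation p of 1e-05, the smallest these permutations can give, and an adjusted p of 7.5e-05. The closest pair by rho was Krt6a and Sprr1b (rho = 0.85, r = 0.86), and r was 0.86 without the 2 label numbers farthest from the median. The closest by r was Sprr1a and Sprr1b (r = 0.90, rho = 0.80), with r of 0.79 without the 2 farthest. For Krt6a and Sprr1a rho was 0.83 and r was 0.80 (0.83 without the 2 farthest), and for Krt6a and Sfn rho was 0.81 and r was 0.81 (0.78 without). Sprr1b did not pass the filter, with a median of 2.40 and 5 of 80 arrays over the threshold. Its order over most tumours therefore comes from values below that threshold.

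The remaining relations were weaker or rested on few tumours. Krt6a and Ivl had rho = 0.39 (permutation p = 0.00637, adjusted p = 0.0409) and r = 0.47, but r was 0.17 without the 2 farthest label numbers. Ivl and Sprr1a had r = 0.77, which was 0.17 without them, and rho = 0.36 (permutation p = 0.0133, adjusted p = 0.0725). By r both relations therefore rest on those samples; rho was not recomputed without them. Krt10 and Lor, the epidermal pair, had rho = 0.35 (permutation p = 0.0145, adjusted p = 0.0725). Tgm1 passed with no other member; its highest rho was 0.26, with Sfn (permutation p = 0.072, adjusted p = 0.249). Krt10 and Krt6a had rho = -0.26 (permutation p = 0.0699, adjusted p = 0.249). Sprr1a and Sprr1b are related sequences 47.1 kb apart, so some shared hybridisation between them was not tested.

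**Figure D3:**
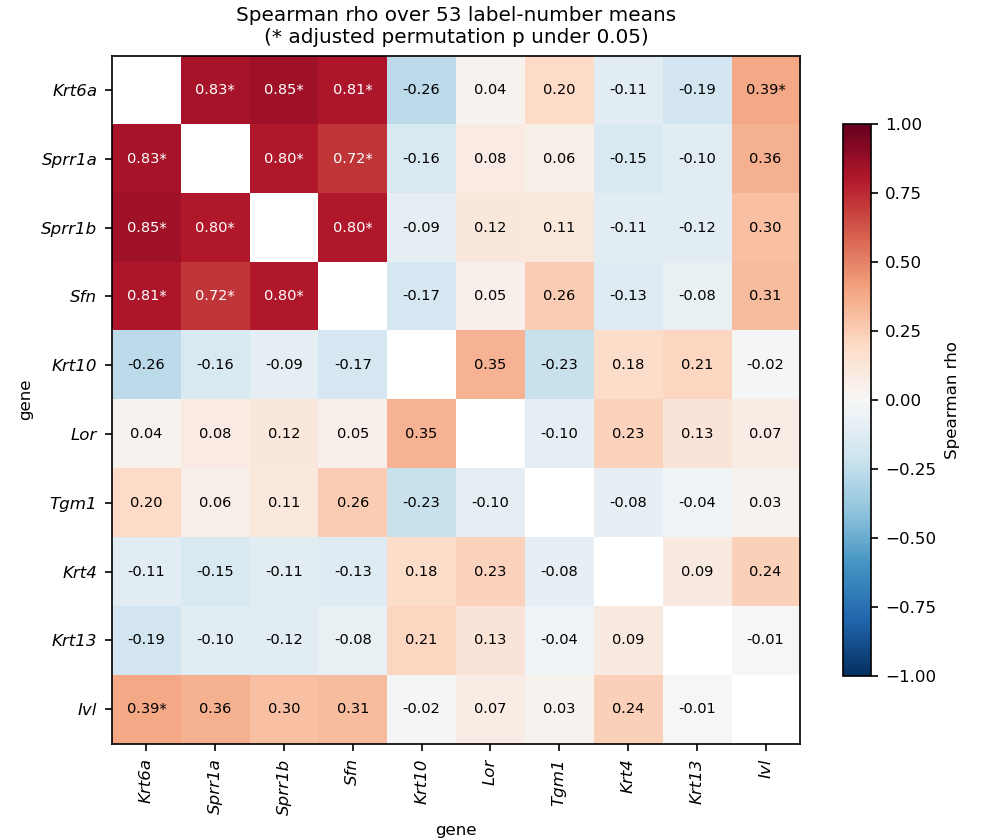
Spearman rho between the brightest probe sets of the 10 genes over 53 label-number means with genotype means removed; a star marks an adjusted permutation p under 0.05. Krt6a, Sprr1a, Sprr1b and Sfn form a block with rho of 0.72 to 0.85, and Krt10, Lor, Tgm1, Krt4 and Krt13 stand outside it.

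A gene was called high in a tumour where log2(value + 5) lay at least 2 units above its median over the 80. For a dim gene the added 5 makes this a larger fold of the intensity itself, so counts of high tumours are not comparable between genes of different brightness. Krt6a was high in 18 tumours, 4 E2F1 null, 3 E2F2 null, 5 E2F3 heterozygous and 6 wild type. Sprr1b was high in 19 tumours, 5, 3, 5 and 6 in the same order, and 17 of the 18 tumours with high Krt6a were among them. Because its median was 2.40, most of these Sprr1b values were still below the filter threshold, and 5 arrays in all exceeded it. Sprr1a was high in 3 tumours, Krt13 in 2, Krt10, Lor, Ivl and Sfn in 1 each, and Krt4 and Tgm1 in none. At a lower bar of 1 log2 unit, Krt6a was high in 29 tumours, Sprr1b in 25, Sprr1a and Krt4 in 14 each, Sfn and Krt13 in 13 each, Lor in 7, Tgm1 in 5, Ivl in 2 and Krt10 in 1. At a bar of 3 log2 units, Sprr1b was high in 8 tumours, Krt6a in 7, Sprr1a in 2, Krt10 and Ivl in 1 each and the other members in none. At the bar of 2 units no member was high in 58 tumours, 1 in 4 tumours, 2 in 15 tumours and 4 in 3 tumours.

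The 3 tumours with 4 high members fell into different patterns. Wild type replicate 18 had Krt6a at 6463, Sprr1a at 2258, Sprr1b at 852 and Ivl at 63.8, with Sfn at 653, while Krt10 was 165 and Lor 109. E2F3 heterozygous replicate 12 had Krt6a at 4218, Sprr1a at 1947, Sprr1b at 1117 and Sfn at 947, with Krt10 at 198 and Lor at 100.02. Both thus combined high Krt6a and Sprr1 genes with Krt10 close to its median of 161. E2F3 heterozygous replicate 2 had Krt10 at 1864 and Lor at 297, each the highest of all tumours, together with the third highest Sprr1a, 329, and the sixth highest Sprr1b, 72.4. Its Krt6a, 567, ranked 20 of 80 and was not high.

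Genes of other lists were read in the same tumours, and those named here were chosen after their values were seen. The share of all genes that were high in each tumour is not given. The counts of high genes per list below and in the further named tumours therefore have no background beside them. In wild type replicate 18, 27 of the 57 other keratinocyte genes on the array were high, among them the keratins Krt6b at 4035 and Krt16 at 1867, Klk7, a kallikrein protease of cornified cell shedding, at 3923, its relative Klk6 at 9076, and Krtdap, a suprabasal keratinocyte gene, at 881. In the same tumour, 11 of 16 basal and myoepithelial genes, 10 of 21 collagen matrix genes, 1 of 30 hair follicle genes and 0 of 18 skeletal muscle genes were high. Its summed hair follicle signal was 856, against a median of 663.

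In E2F3 heterozygous replicate 12, 26 of the 57 other keratinocyte genes were high, with Krtdap at 1140 and Sprr2h, another small proline-rich gene, at 1125. In that tumour 21 of 30 hair follicle genes were also high, led by Tchh (trichohyalin of the inner root sheath) at 5513 and Krt27 (an inner root sheath keratin) at 2511. The summed hair follicle signal was 16032 there and at most 1698 in every other tumour. Skeletal muscle genes were high too, 14 of 18, and the log2 ratio of 3' to 5' actin probe sets, 1.63, was the highest of the 80 arrays. The part of hair follicle or muscle tissue in its keratinocyte values was not tested.

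In E2F3 heterozygous replicate 2, Krt1, the partner keratin of Krt10, was at 483 and Flg, the filaggrin gene of the granular layer, at 333, against next highest values of 50.7 and 91.5 in any tumour. None of the 30 hair follicle genes was high there, while 13 of 18 skeletal muscle genes were, with Myh1 at 3131. The part of skin or muscle at the edge of the sample was not tested. The other tumour with the same label number, replicate 1, had Krt10 at 152.5, Lor at 65.2 and Sprr1a at 23.7.

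The 3 further named tumours were among the 15 tumours with 2 high members, which in these 3 were Krt6a and Sprr1b. E2F2 null replicate 7 held the highest Krt6a, 7138, and a Tgm1 of 243, the second highest, with Sprr1b at 50.3, Sprr1a at 109, Krt10 at 153 and Lor at 54.8. Its summed signal of the other keratinocyte genes ranked 3 of 80. In that tumour Krt6b was at 3313 and Krt16 at 1320, 5 of 57 other keratinocyte genes and 12 of 18 muscle genes were high, and interferon-inducible chemokine genes led its profile, with Cxcl9 at 8990. E2F1 null replicate 6 had the fourth highest Krt6a, 3334, with Sprr1a at 146, Sprr1b at 46.6, 18 of 21 collagen matrix genes high and a luminal sum that ranked 79 of 80. In wild type replicate 8, Krt6a was 1362, Sprr1a 138 and Sprr1b 82.5.

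**Figure D4:**
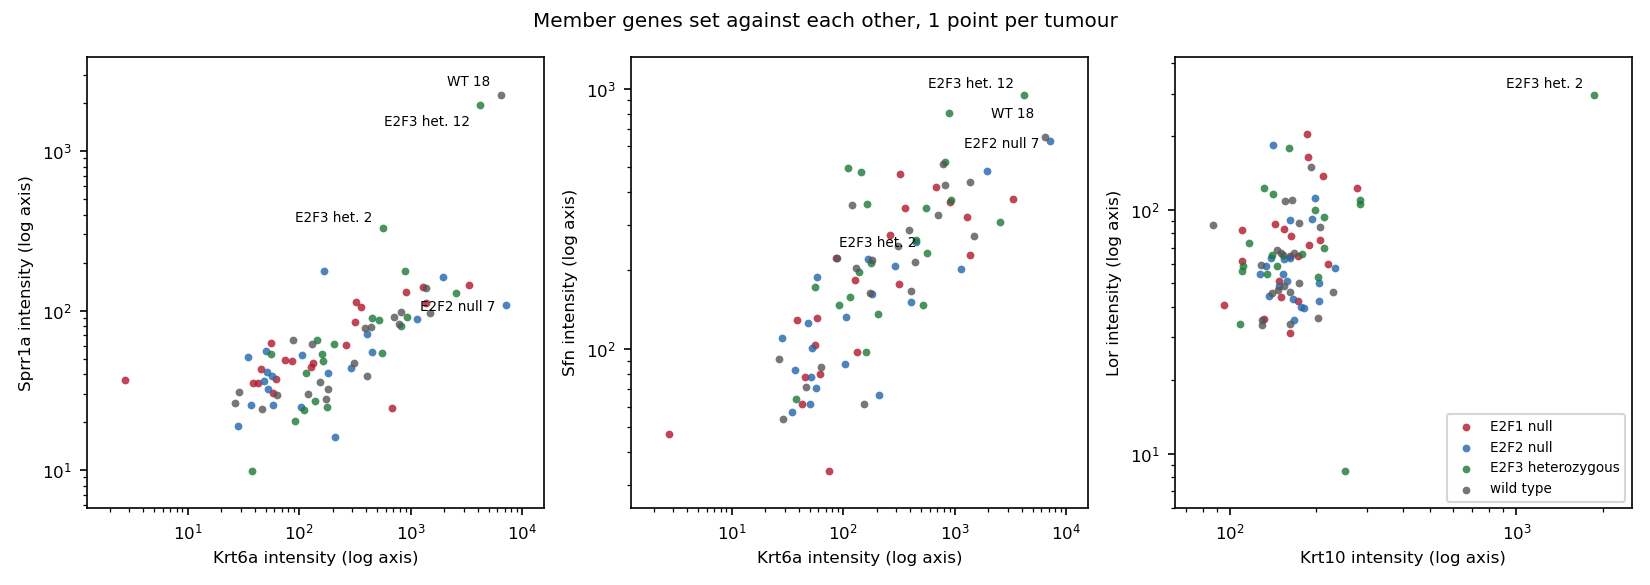
Intensity of Sprr1a and of Sfn against Krt6a, and of Lor against Krt10 (log axes), 1 point per tumour, coloured by E2F1 null, E2F2 null, E2F3 heterozygous and wild type (WT); labels give group and replicate of tumours with high member values. Sfn and Sprr1a climb with Krt6a, wild type 18 and E2F3 heterozygous 12 stand above the rest for Sprr1a, and E2F3 heterozygous 2 stands alone at Krt10 of 1864 and Lor of 297.

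**Figure D5:**
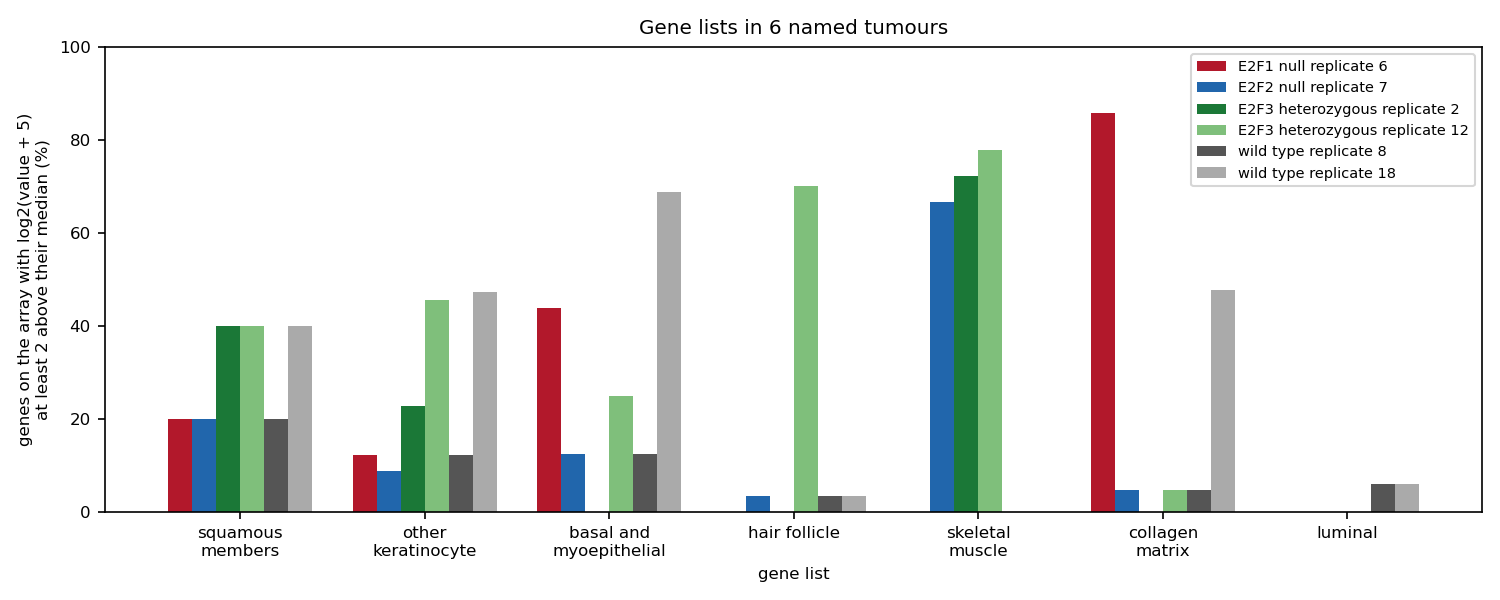
Share of the genes of 7 lists (percent of those on the array) whose log2(value + 5) lay at least 2 units above their median in 6 named tumours, ordered as E2F1 null, E2F2 null, E2F3 heterozygous and wild type. Hair follicle genes are high in E2F3 heterozygous replicate 12 (21 of 30) and in at most 1 of 30 in the others shown, and muscle genes are high in 3 of the 6. The share over all genes is not shown.

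Tumours with the same label number often differed in these genes. Over the 19 numbers shared by 2 or more tumours, the median range of Krt6a within a number was 2.35 log2 units, and in 12 of the 19 it exceeded 2. The widest was in E2F2 null tumours of number 3560, with 211, 7138 and 51.4 in replicates 6, 7 and 8. Sprr1b ranged from 0.596 to 175 among the 4 E2F2 null tumours of number 4010. The within-number correlation, estimated between tumours of the same number, was -0.12 for Krt6a, -0.32 for Sprr1a and -0.11 for Sfn, against a median of 0.16 over the probe sets that passed. A negative value means that tumours of a number were less alike than tumours of different numbers. It was 0.19 for Tgm1, 0.35 for Lor and -0.02 for Krt10. In the fit without a filter it was 0.92 for Ivl, 0.45 for Krt4, -0.09 for Krt13 and -0.17 for Sprr1b, the highest being that of Ivl. Ivl was at the bottom of the scale, and its largest range within a shared number was 0.52 log2 units. Its 2 highest values came from tumours that were each alone in their number, and their part in the 0.92 was not tested.

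Genes outside the set were ranked by likeness, the mean of their Spearman rho with the 10 members over the 80 tumours. Genotype means were not removed here, so points shared the array scaling, a genotype and, for some, a label number. The 10 highest of 8763 genes were Krt16 (0.35), Krt6b (0.33), Krt17 (0.32), Padi3 and Sdc1 (0.29 each), S100a6, Cwh43, Anxa2 and Ralb (0.29 each) and Pdlim7 (0.28), against a median of 0.01. Krt16, the usual partner of Krt6a in keratin filaments, had rho of 0.81 with Krt6a and 0.78 with Sprr1b, and its intensities ran from 1.33 to 1867. Krt17, a keratin of activated keratinocytes, had rho of 0.85 with Krt6a and 0.80 with Sfn. Padi3, a peptidylarginine deiminase that modifies hair and epidermal proteins, had 0.70 with Krt6a.

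The closest genes outside the set differed between members, except that Krt6a and Sprr1a shared one. Krt6a was closest to Krt6b (rho = 0.88), Sprr1a also to Krt6b (0.72) and Sprr1b to Krt16 (0.78). Sfn was closest to Anxa2, an annexin of the membrane cortex (0.86). Tgm1 was closest to the transcription factor gene Nfe2l3 (0.67) and had 0.17 with Krt16. Krt10, Lor, Ivl, Krt4 and Krt13 had no gene above 0.53, the closest being Pan2 (0.51), Fam133b (0.52), Il1b (0.48), Rhbdd3 (0.44) and Pigu (0.47).

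Other keratinocyte genes followed Krt6a more closely than Krt10 over tumours. Of 83 other keratinocyte differentiation and envelope genes listed, 57 were on the array and 26 passed the filter; 0 rose and 0 fell in each mutant group over wild type. The background of that count is the called shares given above. Their median rho with Krt6a was 0.48 and with Krt10 0.01, while over all 8763 genes the medians were 0.01 and 0.02. With Tgm1 it was 0.10. Aloxe3, a lipoxygenase of the lipid envelope, was the least alike of them (rho of -0.24 with Krt6a).

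Among 12 tested basal keratinocyte and myoepithelial genes the median rho with Krt6a was 0.60, with the laminin subunit gene Lama3 at 0.77, Lamb3 at 0.69 and the integrin gene Itgb4 at 0.52. The master regulator of stratified epithelium Trp63 had 0.81 with Krt6a and -0.13 with Krt10, and the AP-1 gene Fosl1 had 0.57 with Krt6a. Of the desmosome and adhesion list, the desmosomal plaque gene Dsp had 0.70, Pkp3 0.56, Jup 0.19 and Cldn4, the least alike, 0.01. The 15 tested luminal genes had a median of 0.05, with Spdef, a luminal transcription factor gene, at -0.35. Medians for genes of other cell types were 0.51 for 20 collagen matrix genes, 0.42 for 11 neutrophil genes, 0.12 for 17 muscle genes and 0.10 for 4 hair follicle genes, and their part in the relations of Krt6a was not tested. For 5 Wnt output genes the median was -0.06 and for 2 melanocyte genes 0.02. It was 0.25 for 25 regulators of keratinocyte differentiation, 0.20 for 10 desmosome and adhesion genes, 0.31 for 6 14-3-3 genes besides Sfn and 0.50 for 2 transglutaminases besides Tgm1. None of the lists had a member that rose or fell past the threshold in any mutant group over wild type.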

How the data were processed

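The 80 arrays were measured on 1 Affymetrix platform. The authors deposited linear intensity values; the submitters' processing notes name MAS5 and Affymetrix Expression Console, without versions. With 2% of values trimmed at each end, the array means ran from 499.946 to 499.958, so arrays share 1 scale and a change in total mRNA per cell cannot be seen. The 64 control probe sets were left out. Gene names came from the platform's probe table: 20380 probe sets had 1 symbol, 691 several and 1555 none.

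Values were taken as log2(value + 5), where a fold change understates the change of dim genes, and kept above 74.6, the 40th percentile, on at least 10 arrays. A linear model of genotype (limma 3.58.1, statmod 1.5.0, R 4.3.3; trend and robust moderation) had the label number as a random block by duplicateCorrelation, consensus correlation 0.166. Tests were two-sided with Benjamini-Hochberg adjustment over 15255 probe sets; genes outside the filter were read from the fit of all 22626. The number of arrays limits the precision: the median SE was 0.12. Correlations used Python 3.11.15, numpy 2.4.6, pandas 2.3.3 and scipy 1.17.1; plots used matplotlib 3.10.9. The fit and the correlation test were tested on simulated data.

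The members, gene lists, tests and alternatives were chosen with earlier results of these data known. Named genes were the members, the 10 most alike genes and the closest gene of each member. From each list they were taken among the 3 most and 1 least alike genes, not all of which are named. Krt18 was outside this rule. Klk6, Klk7, Krtdap, Sprr2h, Tchh, Krt27, Krt1, Flg, Myh1, Cxcl9 and Calm4 were named after their values were seen. Named tumours were the 5 with the highest mean of the centred member values and E2F1 null replicate 6. The lists were other keratinocyte genes, desmosome and adhesion genes, regulators of keratinocyte differentiation, basal and myoepithelial genes, luminal epithelium, hair follicle and sebaceous gland, melanocyte, skeletal muscle, neutrophil, collagen matrix, Wnt output, 14-3-3 genes besides Sfn and transglutaminases besides Tgm1. Promoter sequences are RefSeq's for GRCm38.p6; the deposited table names no genome build.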

Additional observations from a re-analysis of the deposited data

How the results depend on the processing

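Across 12 alternatives, 0 member probe sets were called in any comparison, and the lowest adjusted p of a recomputed member fold change over wild type was 0.684. Krt4, Krt13, Ivl and Sprr1b kept their main fit without a filter, with a filter of 20 arrays and with 1 probe set per gene. Their direction could not turn there. Of 360 fold changes, with those included, 354 kept their direction. Those that turned were Krt13 in E2F2 null tumours, 5.74e-05 with a pseudocount of 50 and 0.020 with no replicate block, and, without wild type replicate 18 and E2F3 heterozygous replicate 12 (chosen after seeing the data), Lor in E2F2 null (0.011), Ivl in E2F1 null (0.055) and E2F3 heterozygous (0.019) and Sprr1a in E2F1 null tumours (0.23). The count of all probe sets called moved by over 1.5 times with 1 probe set per gene, which tests fewer probe sets: 4, 2 and 0 in the E2F1 null, the E2F2 null and the E2F3 heterozygous over wild type, 14 in E2F1 null over E2F2 null, 7 in E2F1 null over E2F3 heterozygous, 3 in E2F2 null over E2F3 heterozygous and 13 in the F test, against 12, 6, 1, 34, 16, 10 and 33. In E2F2 null over E2F3 heterozygous tumours it was 6 after quantile normalization, 17 with no replicate block and 1 with 1 mean per label number. With that mean it was also 0 in E2F3 heterozygous over wild type and 20 in E2F1 null over E2F2 null tumours; the cause was not tested. The number of correlated pairs was 7, and 9 both with a pseudocount of 50 and with all 80 tumours as points. Signal over background limits Krt4, Krt13 and Ivl, which exceeded the filter threshold on 0 arrays, and Sprr1b, which exceeded it on 5.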

Other observations

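Other relatives of the members followed the same tumours to different degrees. Of the 14-3-3 genes besides Sfn, Ywhag had a Spearman rho of 0.67 with Sfn over the 80 tumours, Ywhaq 0.32, Ywhaz 0.27 and Ywhae -0.14. Of the transglutaminases besides Tgm1, Tgm2 had 0.53 and F13a1 0.46 with Krt6a. Among the regulators, Prdm1, a transcriptional repressor, had 0.67 with Krt6a, and Grhl1, a grainyhead factor of the epidermis, had -0.44. Of the collagen matrix list, Snai2 had 0.74 with Krt6a and Lum, its least alike gene, 0.46. Of the neutrophil list, Mmp9 had 0.72 and Ltf, the least alike, 0.18. The Wnt output genes differed in direction, with the Wnt inhibitor gene Apcdd1 at 0.60, Lgr5 at 0.52, Ascl2 at -0.06 and Rnf43 at -0.31. Calm4, a calmodulin-like gene of differentiated keratinocytes that was in none of the lists, was at 1089, 621 and 561 in E2F3 heterozygous replicates 12 and 2 and wild type replicate 18, against a median of 4.33.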
